A study of Homo sapiens with 15 samples.

Results

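The RNA recovered by an anti-m6A antibody was compared with the RNA recovered by control IgG, miRNA by miRNA, in clones of a human cell line. The comparison covers every mature miRNA in the deposited RIP-seq (RNA immunoprecipitation and sequencing) counts, 2189 in all, of which 2054 had enough reads to be tested. It uses 6 of the 15 libraries of the series, 3 m6A samples and 3 IgG samples. In addition, 3 input samples, small RNA before precipitation, served to give the share of reads of each miRNA before precipitation. The clones FTO1C1, FTO2D4 and FTO3C3 are derivatives of Flp-In 293 T-Rex cells, a form of the embryonic kidney line HEK293, and each gave 1 library of each kind. The study states that the lines were uninduced for its knockdown experiments, and does not state it for the precipitations. The labels of these 9 libraries name no siRNA or other treatment. The antibodies came from Synaptic Systems (m6A) and Cell Signaling Technology (IgG). Each clone is a single cell line, so p-values measure how the difference between m6A and IgG varied over 3 clones of 1 origin. That spread also holds precipitation, library and counting error. All mature miRNAs counted were taken in, so none entered the comparison by its value. The lists and the naming rules were chosen with earlier results of these data known, and some miRNAs were named after their values were seen.

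N6-methyladenosine (m6A) is a methyl group on the base of an adenosine. In mRNA it is written mostly by the METTL3 and METTL14 complex within a short consensus around an adenosine followed by a cytosine, and it is removed by the demethylases FTO and ALKBH5. A miRNA is cut from a hairpin by Drosha and Dicer, and the strand kept by an Argonaute protein, the guide, pairs with mRNAs mainly through its seed, bases 2 to 8. Antibody precipitation finds RNAs that carry m6A, but it also brings down RNA that sticks to beads or to antibody in general. The IgG sample measures that part. The count of a miRNA in the m6A sample is therefore read against its count in the IgG sample of the same clone. IgG does not measure RNA without m6A that the anti-m6A antibody itself binds. The study leaves undecided whether some of its motifs reflect a bias of that antibody.

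The mature sequences below are those on which the comparison turns, with the seed in capitals, from RefSeq annotation of GRCh38.p14. The first 10 belong to miRNAs with the highest ratios of m6A to IgG.

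miR-103a-3p: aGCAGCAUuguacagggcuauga
miR-500a-3p: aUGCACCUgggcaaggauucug
miR-1910-3p: gAGGCAGAagcaggaugaca
miR-378a-3p: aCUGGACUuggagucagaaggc
miR-136-5p: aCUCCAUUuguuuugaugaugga
miR-421: aUCAACAGacauuaauugggcgc
miR-3681-5p: uAGUGGAUgaugcacucugugc
miR-374b-5p: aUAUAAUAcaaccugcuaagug
miR-6806-5p: uGUAGGCAugaggcagggcccagg
miR-146b-5p: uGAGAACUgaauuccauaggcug

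The next 7 belong to miRNAs with the lowest ratios, or with the most reads in the IgG samples.

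miR-6511a-3p: cCUCACCAucccuucugccugc
miR-4671-3p: uUAGUGCAuagucuuuggucu
miR-212-3p: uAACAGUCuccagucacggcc
miR-3168: gAGUUCUAcagucagac
miR-6794-3p: cUCACUCUcagucccucccu
miR-6748-3p: uCCUGUCCcugucuccuacag
miR-6080: uCUAGUGCgggcguucccg

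No miRNA of the first group shared its seed with another of that group. Of the 10 sequences, miR-378a-3p held GGACU, miR-421 held AGACA and miR-146b-5p held GAACU. These are among the 12 words of the m6A consensus listed further on, and none of the next 7 sequences held one. Of all tested miRNAs with a sequence, 23.6% held one. The printed sequences were picked by their fold or reads and are too few to compare with that share. miR-378a-3p lies at chr5:149732867-149732888 on the plus strand, within the gene PPARGC1B. miR-103a-3p has 2 loci, at chr5:168560904-168560926 on the minus strand within PANK3 and at chr20:3917541-3917563 on the plus strand within PANK2. miR-421 and miR-374b-5p lie near each other on the minus strand within the lncRNA gene FTX, at chrX:74218392-74218414 and chrX:74218587-74218608. miR-6080 lies at chr17:64780796-64780814 on the plus strand, within the pseudogene ARHGAP27P1.

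In the order FTO1C1, FTO2D4 and FTO3C3, the IgG samples had 741432, 786688 and 186446 miRNA reads, and the m6A samples 569501, 1362780 and 4973238. The inputs held between 1408702 and 1500357. A miRNA with a count of 0 can thus have up to 4.05, 3.81 and 16.1 reads per 1000000 miRNA reads (RPM) in the IgG samples, taking 3 reads as the limit that a count of 0 allows, which covers counting error only. miR-6080 alone took 65.0, 71.6 and 58.0% of the reads in the IgG samples and 47.8, 41.3 and 44.5% in the m6A samples. miR-3168 took another 19.3, 12.3 and 22.1% of IgG reads and 7.68, 9.32 and 5.33% of m6A reads. Its short sequence resembles the end of the 5′ adapter of the library kit. Whether its reads are adapter was not tested, so its share, its fold and its part in the total reads may not measure a miRNA. Together they left 126868 reads or fewer for all other miRNAs in each IgG sample. In the inputs the 2 together took 52.4, 35.7 and 47.8% of the reads, so input RPM also depend on them. The count of miR-6080 was 563404 in both the IgG and the m6A sample of FTO2D4, which was the only count over 1000 shared by any pair of the 9 libraries. Other counts of those 2 samples differed, and the numbers of calls without miR-6080 in the totals and without FTO2D4 are given with those over all miRNAs. HEK293 markers were in place, since miR-10a-5p, miR-10b-5p and miR-196a-5p, from the HOX clusters, summed to between 125775 and 208604 RPM in the inputs. The 9 listed markers of muscle, blood and neurons summed to between 465 and 912 RPM there, most of it miR-223-3p, with 406, 822 and 525 RPM.

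Of the 2054 tested miRNAs, 792 (38.6%) were higher in the m6A samples and 26 (1.27%) were lower, by edgeR's quasi-likelihood test with the clone as a block, libraries scaled to total miRNA reads, and a Benjamini-Hochberg adjusted p under 0.05. Most of the 792 were seen in each clone. They were higher in all 3 clones for 790, and for 754 the lowest m6A sample lay above the highest IgG sample, whereas 941 (45.8%) of all tested miRNAs showed such a gap. Of the 26 lower miRNAs, 25 were lower in all 3 clones and 22 showed no overlap, against 120 (5.84%) of all tested. The median log2 fold change over all tested miRNAs was 0.83, with 0.03 and 1.83 as the 25th and 75th percentiles. A log2 fold change over 4 was found for 109 of the 792 and over 6 for 29. By within-clone ratios, with an IgG count of 0 set to 3 reads, 599 miRNAs were over 2-fold in all 3 clones and 97 were over 10-fold.

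The miRNAs called higher took 32.6, 36.9 and 37.6% of the reads of the m6A samples (FTO1C1, FTO2D4, FTO3C3), 2.47, 2.55 and 3.65% of the IgG samples, and 31.8, 48.3 and 40.1% of the inputs. A called miRNA had a median of 8 reads in an IgG sample and of 138 in an m6A sample, so the IgG reads limit the precision of most folds. The IgG count was 0 in at least 1 clone for 105 tested miRNAs, 79 of them called higher.

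**Figure D1:**
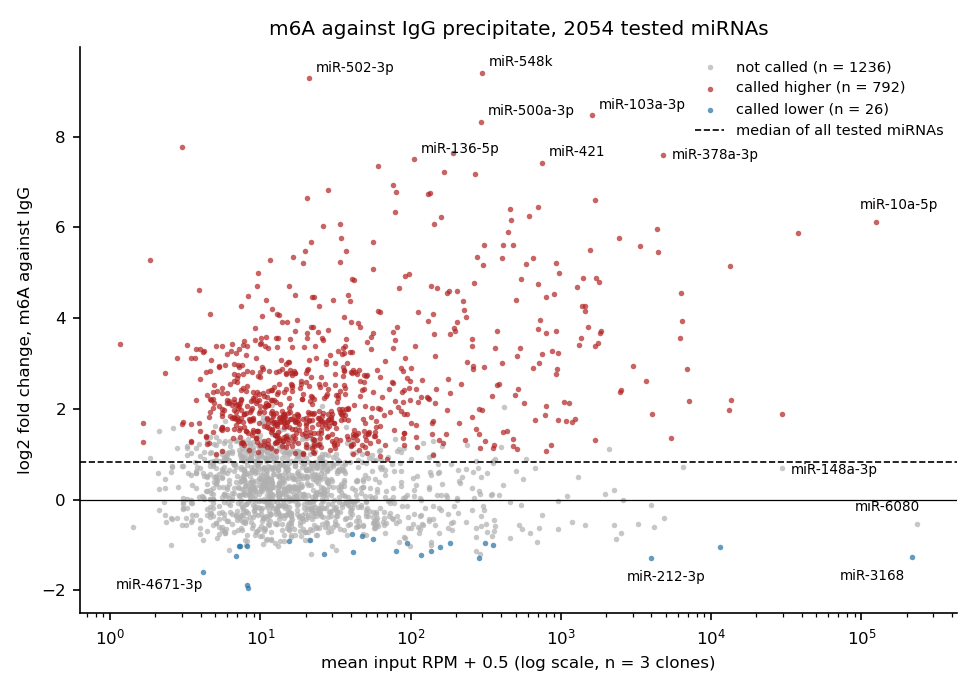
Log2 fold change of the m6A against the IgG samples (n = 3 clones each, vertical axis) by the mean level in the inputs in RPM (log scale, horizontal axis), 1 point for each of the 2054 tested miRNAs. Points called higher (red, 792) reach far above the median of all tested miRNAs (dashed, 0.83), while those called lower (blue, 26) stay between -1.94 and 0. The fitted values of miR-548k and miR-502-3p rest on IgG counts of 0 and have no fixed size.

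The scaling of the libraries decided where the zero point lay. With TMM factors, which centre the bulk of miRNAs, 453 (22.1%) were called higher and 302 (14.7%) lower, and the median log2 fold change was 0.06. With miR-6080 left out of the totals, 448 (23.5%) and 258 (13.5%) were called of the 1908 that then passed the filter on low counts, with a median of 0.10. With both miR-6080 and miR-3168 left out they were 259 (13.6%) and 761 (40%) of 1903, with a median of -0.71. DESeq2 called 367 (17.9%) and 249 (12.1%) with its median of ratios, and 701 (34.1%) and 16 (0.779%) on total reads. The other settings changed the split less, with 849 (41.3%) and 33 (1.61%) without the block, 828 (37.8%) and 28 (1.28%) of 2189 without a filter on low counts, and 804 (43.0%) and 34 (1.82%) of 1870 at a minimum of 15 RPM. No miRNA called higher on total reads was called lower under any of these. All 259 of the totals without both were called higher under all 4 scalings. Of the 26 lower ones 25 were called lower under all 4, the other being miR-3168, which has no value where it is left out. The scalings mainly shift the zero point, so this overlap follows largely from the shift and is not separate support. Folds below are on total reads and are best read against the median of 0.83. Without FTO2D4, the clone with the identical miR-6080 counts, 456 miRNAs were called higher and 14 lower, of which 449 and 7 were also called with all clones.

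**Figure D2:**
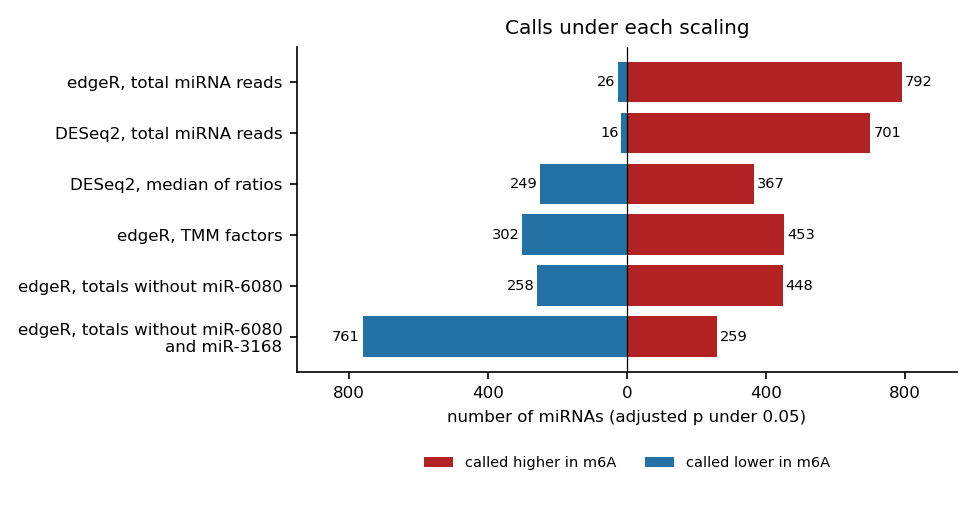
Number of miRNAs called higher (red) and lower (blue) in the m6A samples for each tool and scaling, with an adjusted p under 0.05 as the limit. The higher calls fall from 792 to 259 and the lower calls rise from 26 to 761 between the scaling to all miRNA reads and the scaling that leaves out miR-6080 and miR-3168.

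The 12 strongest differences belonged to a mixed set, from abundant guides to miRNAs scarce in the inputs. They were the largest log2 fold changes among called miRNAs with at least 100 RPM in all 3 m6A samples. miR-103a-3p, a guide from introns of pantothenate kinase genes with known roles in insulin signalling, had 2222, 4607 and 18678 reads in the m6A samples of FTO1C1, FTO2D4 and FTO3C3, and 4, 12 and 2 in the IgG samples. On the RPM scale these were 3679 ± 269 (SD, n = 3) against 10.5 ± 4.93. The groups lay far apart in every clone, and the log2 fold change was 8.47 ± 0.44 (SE, adjusted p = 3.66e-06, edgeR). miR-103a-3p was also abundant before precipitation, with 1447, 1849 and 1544 RPM in the inputs.

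miR-378a-3p, which is made from an intron of PPARGC1B, a coactivator gene of mitochondrial metabolism, had 10205, 7582 and 9183 RPM in the m6A samples and 22.9, 72.5 and 53.6 RPM in the IgG samples. miR-421 had 7847, 6496 and 8793 RPM against 48.6, 50.8 and 26.8 RPM. Both were among the 8 miRNAs with the highest mean level in the m6A samples, and neither showed overlap between the groups. Their log2 fold changes were 7.59 ± 0.49 and 7.43 ± 0.39 (SE, adjusted p = 8.17e-06 and 3.66e-06 in the edgeR test).

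miR-500a-3p, from a miRNA cluster in the gene CLCN5, had 1371, 1370 and 1528 RPM in the m6A samples but 1, 7 and 0 reads in the IgG samples. miR-374b-5p had 194, 536 and 3357 reads in the m6A samples and 0, 5 and 0 in the IgG samples. miR-28-5p had 275, 806 and 3372 reads against 0, 3 and 3. The direction of these 3 was the same in every clone, while the size of the fold, 8.33 ± 0.56, 7.22 ± 0.67 and 7.18 ± 0.65 on the log2 scale (SE), rests on a handful of IgG reads.

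miR-136-5p, of the imprinted DLK1-DIO3 cluster on chromosome 14, had 2156, 3441 and 5313 RPM in the m6A samples and 17.5, 20.3 and 10.7 RPM in the IgG samples. miR-146b-5p, a miRNA known from the regulation of Toll-like receptor signalling, had 525, 378 and 575 RPM against 2.70, 5.08 and 5.36 RPM. miR-320a, made without Drosha, had 509, 1225 and 682 RPM against 4.05, 11.4 and 5.36 RPM, and its highest value was that of FTO2D4. In the inputs miR-320a was scarce, with 25.6, 27.4 and 29.3 RPM, so that it stood higher in each m6A sample than in the input of its clone. The same held for miR-1910-3p, with 157, 232 and 184 RPM in the inputs and 4734, 4370 and 4767 RPM in the m6A samples. miR-3681-5p and miR-6806-5p had log2 fold changes of 7.34 ± 0.36 and 6.94 ± 0.36 (SE), from 2 to 9 reads in each IgG sample. The edgeR or DESeq2 adjusted p of each of the 12 stayed at or below 0.0153 in every other setting tried.

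**Figure D3:**
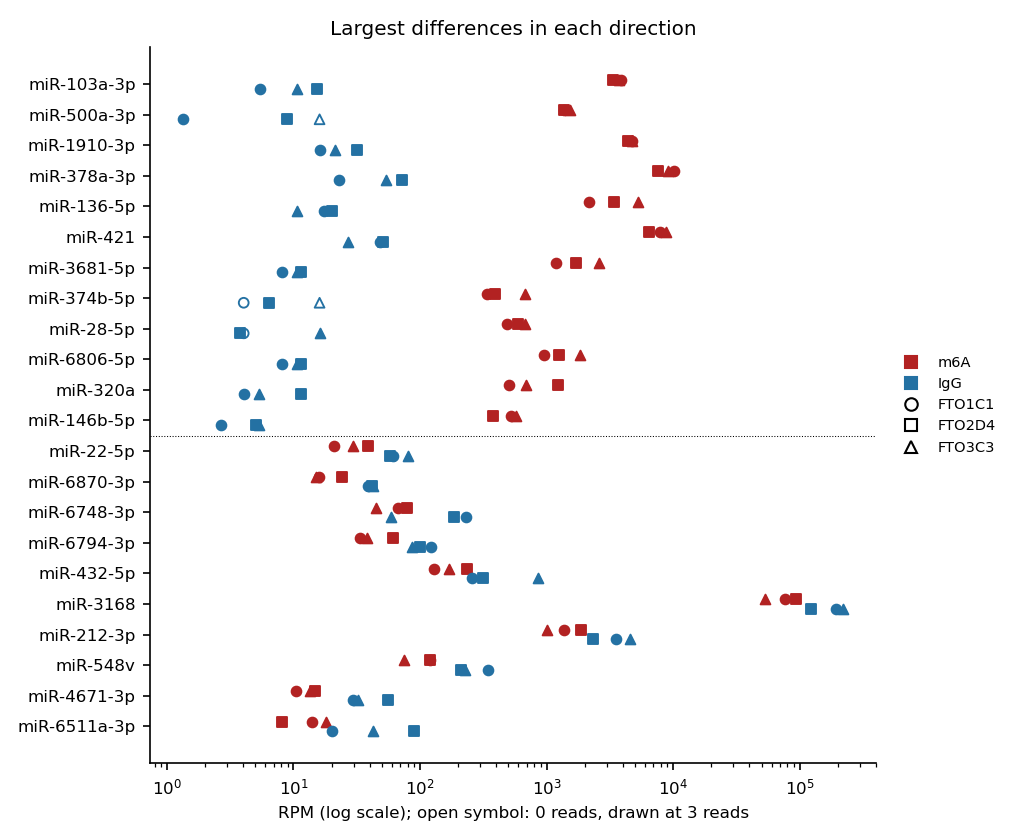
RPM (log scale, horizontal axis) in each m6A (red) and IgG (blue) sample for the 12 miRNAs with the largest and the 10 with the most negative log2 fold changes under the rules in the text, above and below the dotted line. Symbols mark the clone, and open symbols mark a count of 0 drawn at 3 reads. The groups stand far apart for the upper 12, whereas for the lower 10 they lie close to each other and overlap for miR-6748-3p.

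Some further miRNAs, 3 in number, had no read in any IgG sample, and for them a fold is a lower bound. With 3 reads per IgG library, miR-548k, a primate miRNA from a transposon-derived family, was at least 16.9, 12.1 and 4.69-fold higher in the m6A samples of FTO1C1, FTO2D4 and FTO3C3. miR-502-3p was at least 10.8, 16 and 4.19-fold higher, and miR-500b-3p at least 3.47, 5.39 and 2.02-fold. The bound is lowest in FTO3C3 each time, where the IgG sample was shallowest. miR-548k was well represented before precipitation, at 239, 392 and 264 RPM in the inputs, and still gave no IgG read.

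The study's own table of highest enrichment holds 17 miRNAs chosen on these samples, so their values are not independent evidence. All 17 were called higher here, with a median log2 fold change of 7.18. Beside the 12 above, they include miR-1255a, miR-548e-3p, miR-4298, miR-4653-5p and miR-4791, with log2 fold changes of 6.08, 6.33, 6.65, 6.75 and 6.44.

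The lower miRNAs differed by far less. The most negative log2 fold changes among the 25 that were lower in all clones were those of miR-6511a-3p (-1.89 ± 0.59, SE, adjusted p = 0.0317 in edgeR) and miR-4671-3p (-1.60 ± 0.40, adjusted p = 0.0125). miR-6511a-3p had 8, 11 and 90 reads in the m6A samples and 15, 71 and 8 in the IgG samples, or 14.0, 8.07 and 18.1 against 20.2, 90.3 and 42.9 RPM, so the difference was widest in FTO2D4. miR-4671-3p had 10.5, 14.7 and 13.5 RPM in the m6A samples against 29.7, 55.9 and 32.2 RPM. miR-4311, with a fold of -1.94, was higher in the m6A sample of 1 clone and is not counted with these.

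miR-212-3p, which shares its locus and seed with the neuronal miR-132-3p, had 1368, 1869 and 1008 RPM in the m6A samples and 3573, 2322 and 4559 RPM in the IgG samples. Its log2 fold change was -1.29 ± 0.37 (SE, adjusted p = 0.0207, edgeR), and the groups did not overlap. The call of miR-6511a-3p rests on far fewer reads than that of miR-212-3p. Lower in each clone were also miR-548v (-1.30), miR-3168 (-1.26, with the doubt on its reads given above), miR-432-5p (-1.24), miR-6794-3p (-1.23), miR-6748-3p (-1.19), miR-6870-3p (-1.16) and miR-22-5p (-1.14), where the value is the log2 fold change. The groups overlapped for miR-6748-3p alone of these 10. Leaving out FTO1C1, FTO2D4 or FTO3C3 gave 20, 14 and 3 lower miRNAs, of which 12, 7 and 2 were among the 26.

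miR-6080, miR-3168 and miR-3943 were among the 8 highest of both the m6A and the IgG samples. Of the 8 highest in the m6A samples, miR-10a-5p had 71217, 92993 and 71664 RPM there against 545, 1614 and 1555 RPM in the IgG samples. miR-10b-5p had 16848, 21779 and 16977 RPM against 202, 367 and 413 RPM, and miR-183-5p, of a cluster known from sensory organs, 10625, 8372 and 8812 RPM against 128, 186 and 392 RPM. All 3 were well over the IgG level in every clone, with log2 fold changes of 6.13 ± 0.44, 5.88 ± 0.36 and 5.46 ± 0.43 (SE). miR-3943 was high in both, at 22734, 18936 and 13563 RPM against 2571, 2738 and 3636 RPM, with a log2 fold change of 2.62 ± 0.33 (adjusted p = 0.00035, edgeR).

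Of the 8 highest in the IgG samples, only miR-3943 was called higher in the m6A samples. miR-6080 had 478254, 413423 and 444561 RPM in the m6A samples against 650405, 716172 and 579610 RPM, which did not overlap, but its log2 fold change of -0.54 ± 0.34 (SE) missed the threshold (adjusted p = 0.246, edgeR). miR-3972 (-0.61), miR-6766-3p (-0.56) and miR-718 (-0.52) also missed it on total reads. With TMM factors these 3 were called lower, at -1.35, -1.30 and -1.26, and miR-6080 was not, at -1.28. miR-3150a-5p was called lower on both scales, with 4000, 8712 and 4293 RPM in the m6A samples against 9716, 12731 and 10700 RPM. miR-718 was low in the inputs, at 44.7, 87.0 and 45.3 RPM, while it stood at 2100, 2559 and 3052 RPM in the IgG samples, and at 1928, 1573 and 1848 RPM in the m6A samples.

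Among families of abundant guides, let-7 showed a contrast between its arms. Over all tested miRNAs 5p arms were also called higher more often, at 43.6% against 29.8% of 3p arms. Let-7 guides are known for repression of growth genes such as LIN28 and RAS. Of 13 tested members of the list of let-7 and miR-98, 8 were called higher (61.5%), against 38.6% of all tested miRNAs. These 8 are its tested 5p arms, with log2 fold changes from 2.62 (let-7c-5p) to 5.58 (let-7f-5p), and let-7i-5p was not tested. let-7f-5p had 3317, 3674 and 6676 RPM in the m6A samples and 59.3, 97.9 and 123 RPM in the IgG samples. None of the 5 tested 3p arms was called, and the lowest, let-7f-2-3p, had 24.6, 22.7 and 16.1 RPM against 36.4, 38.1 and 48.3 RPM (log2 fold change -0.94 ± 0.39, adjusted p = 0.0895, edgeR). With TMM factors let-7f-2-3p was called lower, at -1.69 (adjusted p = 0.00727), and the 8 higher calls of the list stayed at 8. The median of the list, 2.71, lay above the 0.83 of all tested miRNAs, and a change of scaling moves both by nearly the same amount. Whether reads of one let-7 were counted on another, which the authors' rule of most matching bases allows, was not tested.

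The same seed was found on 9 tested miRNAs outside and inside the list, since miR-4458 shares GAGGUAG, and all 9 were called higher (median 3.79). The 5 miRNAs with the seed ACAUUCA, of the miR-181 family and miR-4262, were likewise all called (median 3.95). Of 5 with AGCAGCA (miR-15 and miR-16), 4 were called, and of 5 with AUUGCAC (miR-25, miR-92 and relatives), 4. Of 7 with CUGGACU, the seed of miR-378a-3p, 2 were called, miR-378a-3p and miR-378i (2.82). The others of that seed were at 0.95 or lower and were scarce in the inputs, with 25 RPM or less. Over all tested miRNAs 38.6% were called higher. A shared seed went with a shared call in some families and not in others.

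Of the clusters known as oncogenic, miR-17-92 and its paralogs had 12 of 16 tested members called higher (75%), against 38.6% of all tested miRNAs. The median of the list was 2.75. miR-17-5p was highest at 4.75 ± 0.73 (SE), from 27, 67 and 189 reads in the m6A samples and 0, 3 and 0 in the IgG samples. The most abundant of the list, miR-92a-3p, had 29669 RPM on average in the inputs and a log2 fold change of 1.89 ± 0.32, from 1573, 1176 and 987 RPM in the m6A samples against 250, 357 and 402 RPM. The list as a whole summed to 37363, 52464 and 65917 RPM in the inputs and to 3178, 3014 and 2720 RPM in the m6A samples. The family of miR-15 and miR-16, known as brakes on cyclins and BCL2, had 4 of 11 called (36.4%), near the share of all tested miRNAs. Its highest was miR-16-5p at 4.56 ± 0.42, and its median of 0.83 matched the median over all miRNAs to 2 decimals. miR-16-5p lay above IgG in every clone.

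The miR-30 family had 7 of 8 tested members called higher (median 2.53), with miR-30c-5p at 5.61 ± 0.65 (SE), from 54, 116 and 566 reads in the m6A samples and 0, 2 and 1 in the IgG samples. The family of miR-28, miR-151 and miR-708, derived from LINE-2 elements, had 5 of 6 called and a median of 4.09. miR-151a-3p of this family had 1097, 952 and 792 RPM against 17.5, 39.4 and 48.3 RPM. The miR-320 list with miR-484, hairpins made without Drosha, had 4 of 4 called (median 4.08), and the miR-374 family 4 of 4 (median 2.90). The medians of these 4 lists lay above the 0.83 of all tested miRNAs, of which 38.6% were called higher. A change of scaling moves a list and all miRNAs by nearly the same amount, so it could hardly alter this order.

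In the CLCN5 cluster 6 of 10 tested members were called higher (60%), against 38.6% of all tested miRNAs. Its median was 2.12, or 1.57 with miR-502-3p and miR-500b-3p at their lower bounds. The called members were all 3p arms but miR-362-5p (1.39 ± 0.44, SE), and miR-501-3p had 471, 748 and 549 RPM in the m6A samples against 16.2, 21.6 and 26.8 RPM. miR-660-5p and miR-532-5p, at 255 and 203 RPM on average in the inputs, had log2 fold changes of 0.26 and 0.03.

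The list of miR-10, miR-99, miR-100 and miR-125 had 6 of 13 tested members called higher (46.2%), against 38.6% of all tested miRNAs. miR-10a-5p and miR-10b-5p stood far above miR-99a-5p (0.50 ± 0.38, SE), miR-99b-5p (0.80 ± 0.33) and miR-100-5p (-0.18 ± 0.33), which were not called. miR-125a-5p was called at 2.54 ± 0.47. miR-125b-5p was among the 135 miRNAs with too few reads for the test. The 3 HOX cluster miRNAs, miR-10a-5p, miR-10b-5p and miR-196a-5p (2.54 ± 0.44), were all called.

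Not every abundant guide stood above IgG. miR-148a-3p, a liver and B cell miRNA that was also high in these cells, had 27878, 39302 and 21704 RPM in the inputs, but 160, 160 and 223 RPM in the m6A samples and 75.5, 114 and 156 RPM in the IgG samples. The 2 groups did not overlap, yet the log2 fold change of 0.69 ± 0.31 (SE) missed the threshold (adjusted p = 0.108, edgeR). Its relative miR-148b-3p was at -0.01 ± 0.38, while miR-152-3p of the same family was at 3.80 ± 0.36. Of the pair miR-222-3p and miR-221-3p, which share a transcript, miR-222-3p had 771, 442 and 1263 RPM in the m6A samples against 28.3, 26.7 and 26.8 RPM, and miR-221-3p had 19.3, 39.6 and 37.0 RPM against 22.9, 22.9 and 26.8 RPM. Their log2 fold changes were 4.69 ± 0.37 and 0.37 ± 0.41. With TMM factors miR-221-3p turned to -0.39, which was not called either.

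The miR-29 family, known for repression of collagen genes, had 1 of 5 tested members called, miR-29b-2-5p (4.45 ± 0.61, SE). miR-29c-3p had 1, 14 and 90 reads in the m6A samples and 9, 13 and 7 in the IgG samples (log2 fold change -1.14 ± 0.51, adjusted p = 0.106, edgeR), and with TMM factors it was called lower at -1.87 (adjusted p = 0.0171). In the epithelial list of miR-200, miR-141 and miR-429, 2 of 6 were called, miR-200b-3p (5.09 ± 0.49) and miR-200c-3p (1.18). Of the clusters of miR-23, miR-24 and miR-27, 6 of 10 were called, from miR-23b-3p (6.03 ± 0.67, from 3, 0 and 0 IgG reads) to miR-27b-3p (1.36 ± 0.39), and miR-24-3p was at 0.20 ± 0.55. Against the 38.6% called over all tested miRNAs, other family lists had 7 of 9 called (miR-181, highest miR-181a-5p at 4.26), 5 of 7 (miR-130, miR-301 and miR-454, highest miR-130b-3p at 4.88), 3 of 6 (miR-148 and miR-152), 2 of 4 (miR-221 and miR-222), 2 of 4 (miR-26, highest miR-26a-5p at 3.93), 2 of 4 (miR-103 and miR-107) and 3 of 8 (miR-378). With TMM factors the higher calls were 5 (miR-181), 3 (miR-130, miR-301 and miR-454), 1 (miR-26), 3 (miR-23, miR-24 and miR-27), 5 (miR-30), 4 (CLCN5 cluster), 1 (miR-200, miR-141 and miR-429) and 3 (miR-374), and those of the lists of miR-148, miR-221, miR-103 and miR-378 did not change in number.

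**Figure D4:**
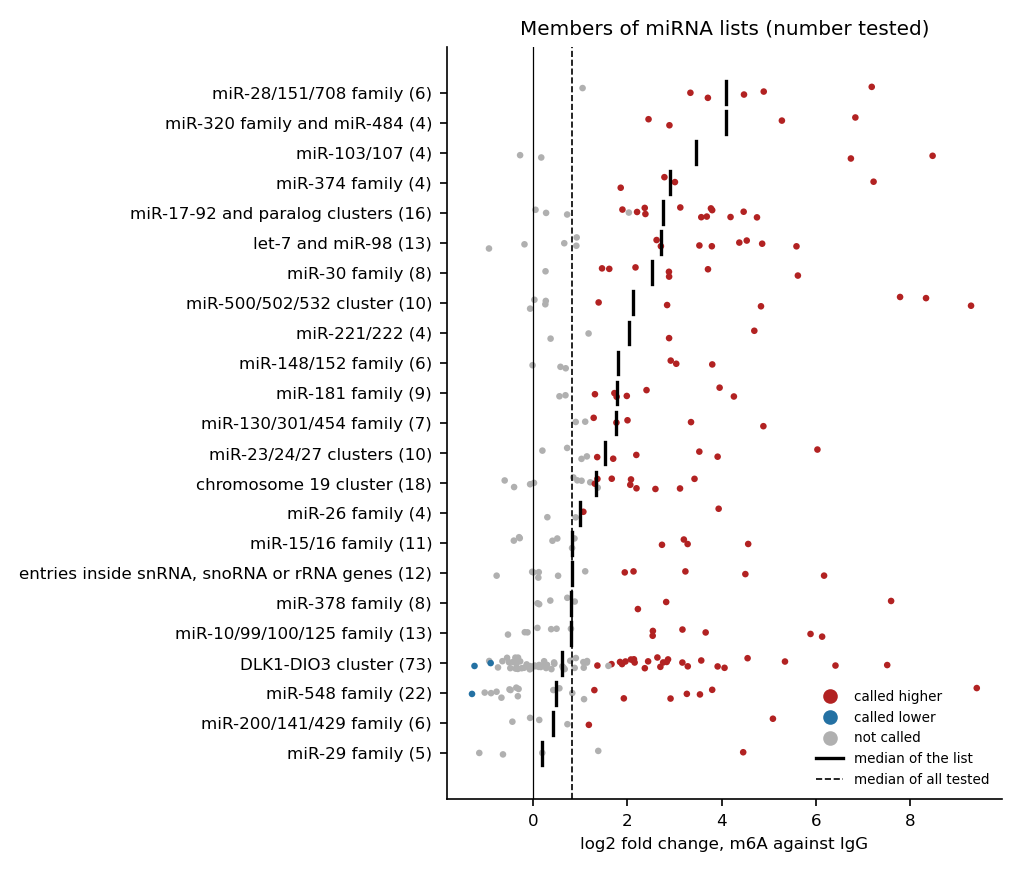
Log2 fold change of the m6A against the IgG samples (horizontal axis) for each tested member of 23 miRNA lists (vertical axis, with the number tested), coloured by call. Black bars mark the median of each list and the dashed line that of all tested miRNAs, 0.83. The family of miR-28, miR-151 and miR-708 has the highest median, 4.09, and the miR-29 family the lowest, 0.19 (-0.55 with TMM factors), and most lists hold both called and uncalled members.

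The balance of calls in large clusters and name series depended on the scaling. In the DLK1-DIO3 cluster 25 of 73 tested members were called higher and 2 lower, with a median of 0.62 (-0.14 with TMM factors), and its members ran from miR-136-5p and miR-485-5p (6.41 ± 0.33, SE) down to miR-495-3p (-0.90 ± 0.28) and miR-432-5p. The calls there were 21 higher and 13 lower with TMM factors, and 12 and 34 with miR-6080 and miR-3168 left out of the totals. miR-432-5p and miR-495-3p were scarce in the inputs, with at most 7.54 and 31.2 RPM, and had 258, 313 and 853 RPM and 804, 1073 and 1126 RPM in the IgG samples. In the placental cluster of chromosome 19, 9 of 18 were called, with miR-519e-5p at 3.42 ± 0.40, and its called members other than miR-516b-5p (43.2 RPM) were under 10 RPM on average in the inputs. This cluster had 4 higher and 2 lower calls with TMM factors, and 2 and 4 without both miRNAs in the totals. Of the miR-548 family 8 of 22 were called higher and 1, miR-548v, lower, and its median of 0.49 turned to -0.28 with TMM factors, which called 6 higher and 6 lower. The mirtron-rich series miR-6715 to miR-6895, many of them spliced introns, had 88 of 281 called higher and 5 lower (median 0.63, -0.12 with TMM). Lower calls overtook the higher ones in this series under other scalings, with 45 higher and 51 lower by TMM, and 23 and 113 without both miRNAs in the totals. The late-annotated series miR-4417 to miR-4540 and miR-4632 to miR-4804 had 51 of 126 (40.5%) and 91 of 238 (38.2%) called higher. Both were near the share of all tested miRNAs. With TMM factors they had 30 and 47 higher against 22 and 32 lower. Among 12 entries that lie inside snRNA, snoRNA or rRNA genes 5 were called, miR-1246 highest at 6.17 ± 0.42, with 1965, 5528 and 2619 RPM in the m6A samples against 28.3, 44.5 and 69.7 RPM. Of the 9 markers of other cell types 4 were called, miR-223-3p highest at 5.20 ± 0.37, and under each of the other 3 scalings 1 was called higher. On total reads the shares called higher in the DLK1-DIO3 cluster (34.2%), the miR-548 family (36.4%), these 12 entries (41.7%) and these 9 markers (44.4%) lay near the 38.6% of all tested miRNAs. The share was 31.3% in the mirtron-rich series and 50% in the chromosome 19 cluster.

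The arm of the hairpin went with the fold across the whole table. Of 718 tested 5p arms 313 (43.6%) were called higher, and of 641 tested 3p arms 191 (29.8%), with median log2 fold changes of 1.02 and 0.47. With TMM factors 187 of the 5p arms were called higher and 74 lower, and 105 and 128 of the 3p arms (medians 0.25 and -0.28). Names without an arm had 41.4% called. In 517 hairpins with both arms tested, the 5p arm had the larger fold change in 320, by a median difference of 0.46 on the log2 scale. Both arms were called in 60 hairpins, 1 arm in 233 and neither in 224. In the 134 hairpins where 1 arm had at least 100 RPM and at least 2-fold more input than the other, the more abundant arm had the larger fold change in 71, with medians of 1.02 and 0.66. These are descriptions over miRNAs, which are not independent replicates.

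miRNAs that were abundant in the inputs were called more often. Under 10 RPM in the input 30.7% of tested miRNAs were called higher, from 100 to 1000 RPM 51.7%, and from 1000 RPM 68.2% (45 of 66, median log2 fold change 2.29). Counts give more precision there, and the part of depth in this order was not tested. Across the 2054 miRNAs the fold correlated with the log2 input level at Pearson's r = 0.23 and Spearman's rho = 0.10, and with the log2 IgG level, from which it is computed, at r = -0.50 and rho = -0.58.

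The share of adenosine was the sequence feature that went most with the fold. A mature sequence was found in RefSeq for 1806 of the 2054 tested miRNAs (87.9%). Of those with 0 or 1 adenosine 17.8% were called higher (23 of 129), and the share rose through 20.4, 26.4, 33.5, 38.1, 47.0 and 47.4% for 2 to 7 adenosines to 60.8% for 8 or more (146 of 240). The median log2 fold change rose from 0.02 to 1.64 between the first and last class. Under TMM factors the corresponding calls were 10 of 129 and 90 of 240, and the medians -0.73 and 0.88. Across miRNAs the number of adenosines correlated with the log2 fold change at r = 0.32 (rho 0.34), the percent of C at -0.28 (rho -0.31) and the percent of G plus C at -0.21 (rho -0.20). The values for G were r = 0.05 and rho = 0.11, and for U -0.06 and -0.084. miRNAs share libraries and base composition, so these are descriptions without a test. A bias of the antibody for some sequences was not tested. Among the first 10 sequences printed above, miR-374b-5p held 9 adenosines, miR-421 and miR-1910-3p 8 each, and miR-103a-3p and miR-146b-5p 7 each. miR-378a-3p held 6, miR-500a-3p, miR-136-5p and miR-6806-5p 5 each, and miR-3681-5p 4. Among the next 7, miR-212-3p and miR-3168 held 5 each, so the groups overlapped. miR-4671-3p held 3, and miR-6511a-3p, miR-6794-3p and miR-6748-3p 2 each. miR-6080 held 1.

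**Figure D5:**
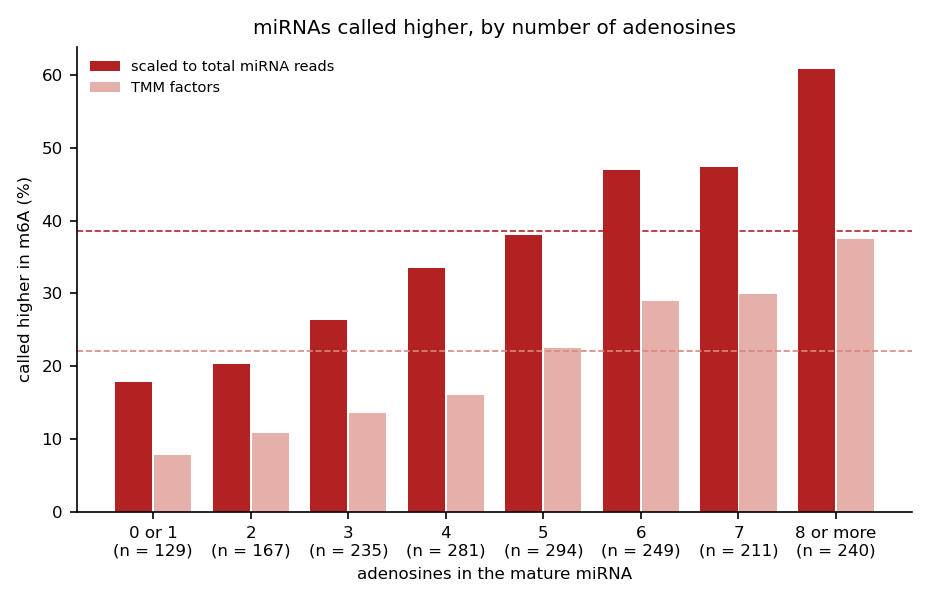
Percentage of tested miRNAs called higher in the m6A samples (vertical axis, from 0) by the number of adenosines in the mature sequence (horizontal axis, with the number of miRNAs), on total miRNA reads (red) and with TMM factors (pale). Dashed lines are the percentages over all tested miRNAs, 38.6 and 22.1. On total reads the bars rise from 17.8% to 60.8%.

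The words of the m6A consensus were also found more often in miRNAs called higher. GAC or AAC, searched on the mature strand alone, was found in 308 of 688 miRNAs called higher, or 44.8% (Wilson 95% interval 41.1 to 48.5), in 37.4% (34.6 to 40.3) of those not called and in 40.2% of all. The longer words GGACA or GGACC or GGACU or GAACA or GAACC or GAACU or AGACA or AGACC or AGACU or AAACA or AAACC or AAACU, each of which contains GAC or AAC, were found in 28.8% (25.5 to 32.3), 20.5% (18.2 to 23.0) and 23.6%. The miRNAs with the largest folds did not carry the words more often. With a log2 fold change over 4 the share with 1 of the 12 words was 22.7% (15.5 to 32.0, 22 of 97), and among miRNAs called higher under all 4 scalings it was 22.9% (17.9 to 28.8), both within the range of all tested miRNAs, although these miRNAs held a median of 7 and 6 adenosines against 4 in those not called. Among miRNAs with at least 100 RPM in all 3 m6A samples, the 12 words were in 32.9% (27.1 to 39.3) of those called higher and in 23.3% (17.5 to 30.4) of the rest. Every word holds at least 1 adenosine, and miRNAs called higher held a median of 6 adenosines against 4 in those not called. Shares at an equal number of adenosines were not compared, so the part of base composition was not tested. A word is a match of letters and not a mapped site of methylation.

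Close relatives put base differences side by side, and 13 pairs of tested miRNAs of equal length differed at 1 base. Their log2 fold changes differed by a median of 1.05, against 1.25 for any 2 tested miRNAs. The 4 pairs that differed most are shown with the seed in capitals.

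miR-196a-5p: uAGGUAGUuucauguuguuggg
miR-196b-5p: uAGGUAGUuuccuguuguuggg
miR-181b-5p: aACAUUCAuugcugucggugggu
miR-181d-5p: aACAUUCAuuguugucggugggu
let-7a-5p: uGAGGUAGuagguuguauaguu
let-7c-5p: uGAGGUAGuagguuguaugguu
miR-103a-3p: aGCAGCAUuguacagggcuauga
miR-107: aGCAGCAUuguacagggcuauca

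Counted from the 5′ end, with the base of the first of the pair given first, the differences are A12C, C12U, A19G and G22C. miR-196a-5p had 87.8, 163 and 137 RPM in the m6A samples against 13.5, 16.5 and 48.3 RPM in the IgG samples, whereas miR-196b-5p, which was higher in each input, had 29.9, 37.4 and 52.5 RPM against 33.7, 29.2 and 37.5 RPM. The log2 fold changes were 2.54 ± 0.44 and 0.22 ± 0.37 (SE). miR-181b-5p and miR-181d-5p were at 3.95 ± 0.42 and 1.99 ± 0.46, and let-7a-5p and let-7c-5p at 4.53 ± 0.31 and 2.62 ± 0.45. miR-103a-3p stood at 8.47 and miR-107 at 6.74 ± 0.74, but miR-107 had 1 IgG read in all. The pairs were chosen for their difference, so no test of it is given. Whether reads of 1 miRNA of a pair were counted on the other was not tested. In the first and the third pair the base that differs is an adenosine in the miRNA with the larger fold. In the second and the fourth pair both miRNAs hold the same number of adenosines. The pairs not shown went both ways. The adenosine was in the larger fold for miR-1269b over miR-1269a, let-7f-5p over let-7a-5p and miR-642a-3p over miR-642b-3p. It was in the smaller fold for miR-100-5p below miR-99a-5p and let-7c-5p below let-7b-5p.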

How the data were processed

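Small RNA was precipitated with anti-m6A antibody or IgG and sequenced on the Illumina platform. The authors trimmed adapters with cutadapt and matched reads to miRBase mature miRNAs by maximal exact matches, and they deposited raw counts per mature miRNA that were not normalized. A read that fitted several entries went to the one with most matching bases, entries of identical sequence were collapsed, and no genome was used. The columns of the 3 m6A, 3 IgG and 3 input samples were used, and the FTO knockdown counts were not used here.

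RPM are reads per 1000000 miRNA reads. Counts were tested with edgeR 4.0.16 in R 4.3.3 (quasi-likelihood fit and test, low counts filtered by filterByExpr at 10, library size equal to total miRNA reads, clone as a block), with Benjamini-Hochberg adjustment at 0.05. The clone pairs the samples because libraries of 1 name come from 1 cell line. Deviations of paired samples from their group means correlated at 0.007, 0.025 and 0.023, against -0.023 to 0.00 for other pairs. Samples of 1 group differed by more than sampling noise (chi-square per degree of freedom 7.79 to 54.4), so none was counted as a copy.

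Alternatives were TMM factors, totals without miR-6080, DESeq2 1.42.0, other filters, no block and each clone left out, and, added after seeing the data, totals without miR-6080 and miR-3168. The script was tested on simulated data. Members, the 29 lists and the rules were chosen with earlier results of these data known. Named were the 12 largest called log2 fold changes with at least 100 RPM in all m6A samples, the 10 lowest, the 8 most abundant of each group, members at either end of a list and 4 pairs 1 base apart. Other miRNAs were named after their values were seen. Sequences are from RefSeq, GRCh38.p14.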

Additional observations from a re-analysis of the deposited data

How the results depend on the processing

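The number of miRNAs called higher was 792 on total reads. It was 453 with TMM factors, 448 with totals without miR-6080, 259 with totals without miR-6080 and miR-3168 (chosen after seeing the data) and 367 with DESeq2's median of ratios, and with a clone left out it ran from 456 (without FTO2D4) to 710. The number called lower was 26. It became 302, 258, 761 and 249 under the same settings, 16 with DESeq2 on total reads, and 3 (without FTO3C3) to 20 with a clone left out. Without the replicate block the calls were 849 and 33, and no filter on low counts or a minimum of 15 RPM kept both within 1.5 times. The 599 miRNAs over 2-fold in all 3 clones became 326, 334 and 186 with TMM factors and the smaller totals, and 651 to 767 with a clone left out. The share of called higher miRNAs with GAC or AAC moved to 50.2% at 100 RPM, and that with 1 of the 12 words to 32.9% there and to 22.9% without both miRNAs in the totals. The smaller totals and TMM move the zero point by construction, and the cause of the other shifts was not tested.

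Of 106 miRNAs named in the text or at an end of a list, 21 changed direction in some setting, 4 of them called on total reads and 17 not. The called ones turned with totals without miR-6080 and miR-3168, miR-200c-3p to -0.31, miR-27b-3p to -0.13, miR-362-5p to -0.10 and miR-516b-5p to -0.18. Over all 792 miRNAs called higher, 592 had a positive log2 fold change there, 746 without miR-6080 and 792 with TMM.

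Values of those not called are given in the order TMM, totals without miR-6080, totals without both and DESeq2's median of ratios. miR-24-3p turned to -0.55, -0.49, -1.29 and -0.65, miR-221-3p to -0.39, -0.35, -1.12 and -0.44, and miR-196b-5p to -0.54, -0.49, -1.28 and -0.57. miR-93-3p turned to -0.70, -0.63, -1.44 and -0.72, miR-30c-1-3p to -0.50, -0.45, -1.23 and -0.54, and miR-181d-3p to -0.19, -0.13, -0.93 and -0.23. miR-532-5p turned to -0.71, -0.64, -1.45 and -0.75, miR-660-5p to -0.49, -0.43, -1.23 and -0.52, and miR-99a-5p to -0.24, -0.18, -0.98 and -0.28. With TMM, totals without both and DESeq2's median of ratios, miR-378b turned to -0.65, -1.39 and -0.60, and miR-148a-3p to -0.055, -0.79 and -0.091. miR-26b-3p turned to -0.49 (TMM) and -0.44 (median of ratios), and miR-708-3p and miR-99b-5p to -0.46 and -0.69 without both. Without the block miR-148b-3p turned to 0.093 and miR-93-3p to -0.063. With a clone left out miR-24-3p ran from -0.69 to 0.75, miR-148b-3p from -0.19 to 0.16, miR-93-3p from -0.27 to 0.46, miR-30c-1-3p from -0.17 to 0.66, miR-103a-2-5p from -0.59 to 0.052, miR-532-3p from -0.25 to 0.29, miR-378b from -0.30 to 0.90, miR-532-5p from -0.57 to 0.40 and miR-99a-5p from -0.0066 to 0.77. The depth of the IgG sample of FTO3C3, 186446 reads, limits the folds of scarce miRNAs.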
